A study of Mus musculus with 48 samples.

Results

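TGF-beta and activin signalling was followed through 10 named genes of 24054 genes counted in the series. They are the ligand genes Tgfb1, Tgfb2, Tgfb3 and Inhba, the receptor genes Tgfbr1 and Tgfbr2, the signal transducer Smad3, and the feedback inhibitors Smad7, Skil and Pmepa1. All 10 had a line in the count table. RNA was measured in 48 mouse libraries in 16 groups of 3. Macrophages and neutrophils were sorted from 2208L, T11, AT3 and E0771 breast tumours, 12 libraries of each cell type. The other 24 libraries came from 8 breast tumour lines in culture, 2208L, T11, 4T1 and 67NR, labelled BALB/C, and PyMT-N, PyMT-M, AT3 and E0771, labelled C57BL/6. Sorted cells of 2208L and T11 tumours are labelled BALB/C and those of AT3 and E0771 tumours C57BL/6, apart from E0771 exceptions given below. Strain therefore differs between tumours in tests over all 4 and cannot be told apart from tumour there.

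All lines were grown with fetal bovine serum, penicillin, streptomycin and amphotericin B, E0771 in RPMI with HEPES and the other lines in DMEM with high glucose. The labels give passages 15 to 20 for 2208L, T11 and 4T1, passage 19 for 67NR, 14 for PyMT-N, 7 for PyMT-M, 15 for AT3 and 14 for E0771, so medium and passage differ with the line in some pairs. Each line is 1 culture model, and the labels do not say how many animals, tumours or separate cultures stand behind a group. The p-values therefore measure the spread between these libraries, which may be technical. The sorted cells were DAPI-negative, CD45+ and CD11b+. Macrophages were also F4/80+ without Ly6G or Ly6C, and neutrophils were Ly6G+ with medium to low Ly6C.

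TGF-beta ligands are secreted in a latent form, are released in the matrix, and then bind TGFBR2, which recruits and phosphorylates TGFBR1. Activin A, a dimer of the Inhba product, signals through activin receptors, and both branches phosphorylate SMAD2 and SMAD3, which enter the nucleus with SMAD4. Targets include inhibitors of the pathway itself: SMAD7 blocks and degrades the type I receptor, SKIL (SnoN) represses SMAD complexes, and PMEPA1 holds receptor SMADs away from the receptor. In breast tumours the pathway is known both as a brake on epithelial growth and as a driver of epithelial-mesenchymal transition, and myeloid cells both make and sense TGF-beta.

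Levels are CPM, counts scaled to the same total in every library, with the ribosomal RNA precursor Rn45s left out of that total. They are given for replicates 1, 2 and 3 in that order, or as mean ± SD (n = 3). Log2 differences ± SE come from the edgeR quasi-likelihood fit, which adds a scaling factor per library (TMM), so they differ from the ratio of the levels. A gene was called at a Benjamini-Hochberg adjusted p below 0.05 over all genes of the fit.

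Counts outside Rn45s ran from 683150 to 1755895 in macrophage libraries, from 470712 to 1185233 in neutrophil libraries and from 1893268 to 5749088 in lines, and the 10 genes together took 548 to 2675, 281 to 1774 and 724 to 7413 counts in these 3 kinds of library. Genes of olfactory and vomeronasal receptors, which few tissues express, served as background. Their summed level averaged between 1123 and 2927 CPM in macrophage groups and between 727 and 2589 in lines. In neutrophils it was 5234 CPM in 2208L, 15338 in T11, 10354 in AT3 and 8211 in E0771 tumours. Per base of exon, a gene was taken as above background at 10 times the receptor level. All 10 genes passed this in the 2208L line, 9 in T11 and PyMT-N, 8 in 4T1, 7 in 67NR, PyMT-M and E0771, and 4 in AT3. In macrophages 7 passed in 2208L and T11, 8 in AT3 and 5 in E0771 tumours. In neutrophils 7 passed in 2208L, 3 in AT3 and 2 in E0771 tumours, and none in T11 tumours, where Skil was the highest at 8.29 times.

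The labels were checked against markers. Summed macrophage markers (8 genes) ran from 6019 to 15072 CPM in macrophages and from 589 to 4282 in neutrophils, lowest in T11 neutrophils. Neutrophil markers (6 genes, Ly6g having no line in the table) ran from 2471 to 23807 CPM in neutrophils. They ran from 110 to 359 CPM in macrophages other than those of T11 tumours, where they reached 3154 to 7929, nearly all of it Mmp9, which averaged 5975 CPM, with S100a8 at 1.42 CPM. Epithelial markers (6 genes) summed to 325 to 503 CPM in macrophages and 456 to 553 in neutrophils of 2208L tumours, and to no more than 175 in other sorted groups. In the lines they summed to 3972 to 4221 CPM in 2208L, 2606 to 2979 in 4T1 and 4114 to 4156 in PyMT-N, and to under 200 in the other 5. The authors' column names carry the suffix Epi for 2208L, 4T1, PyMT-N and AT3 and Mes for T11, 67NR, PyMT-M and E0771. The data go against the suffix of AT3, whose epithelial markers (70.8 to 93.0 CPM) lay below those of E0771 (162 to 193 CPM). The first E0771 neutrophil and the first E0771 macrophage library are labelled BALB/C, unlike the other E0771 libraries. The AT3 against E0771 comparisons of sorted cells and the interaction are also given without them. Other results on E0771 sorted cells include them.

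All 10 genes differed among the 8 lines in the F test of any difference (edgeR, adjusted p from 1.77e-73 for Pmepa1 to 2.86e-15 for Tgfb3), where 89.1% of 18348 genes tested passed. The ranges of the group means differed greatly between members. Inhba and Pmepa1 had the widest, with a ratio of highest to lowest mean of 695 and 235. The other 8 genes spanned 3.69-fold (Tgfb3) to 12.5-fold (Tgfb2). In the order of levels within a gene, 38 of 70 pairs of neighbouring lines differed (adjusted p below 0.05), where 47% of all tests of a gene between a pair of lines passed. The 47% covers all pairs of lines, also those far apart in level, so it is not a like measure for neighbours. In 2 of the 38 the fitted difference had the opposite sign to the levels: 4T1 against 2208L for Inhba and 4T1 against T11 for Skil.

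**Figure D1:**
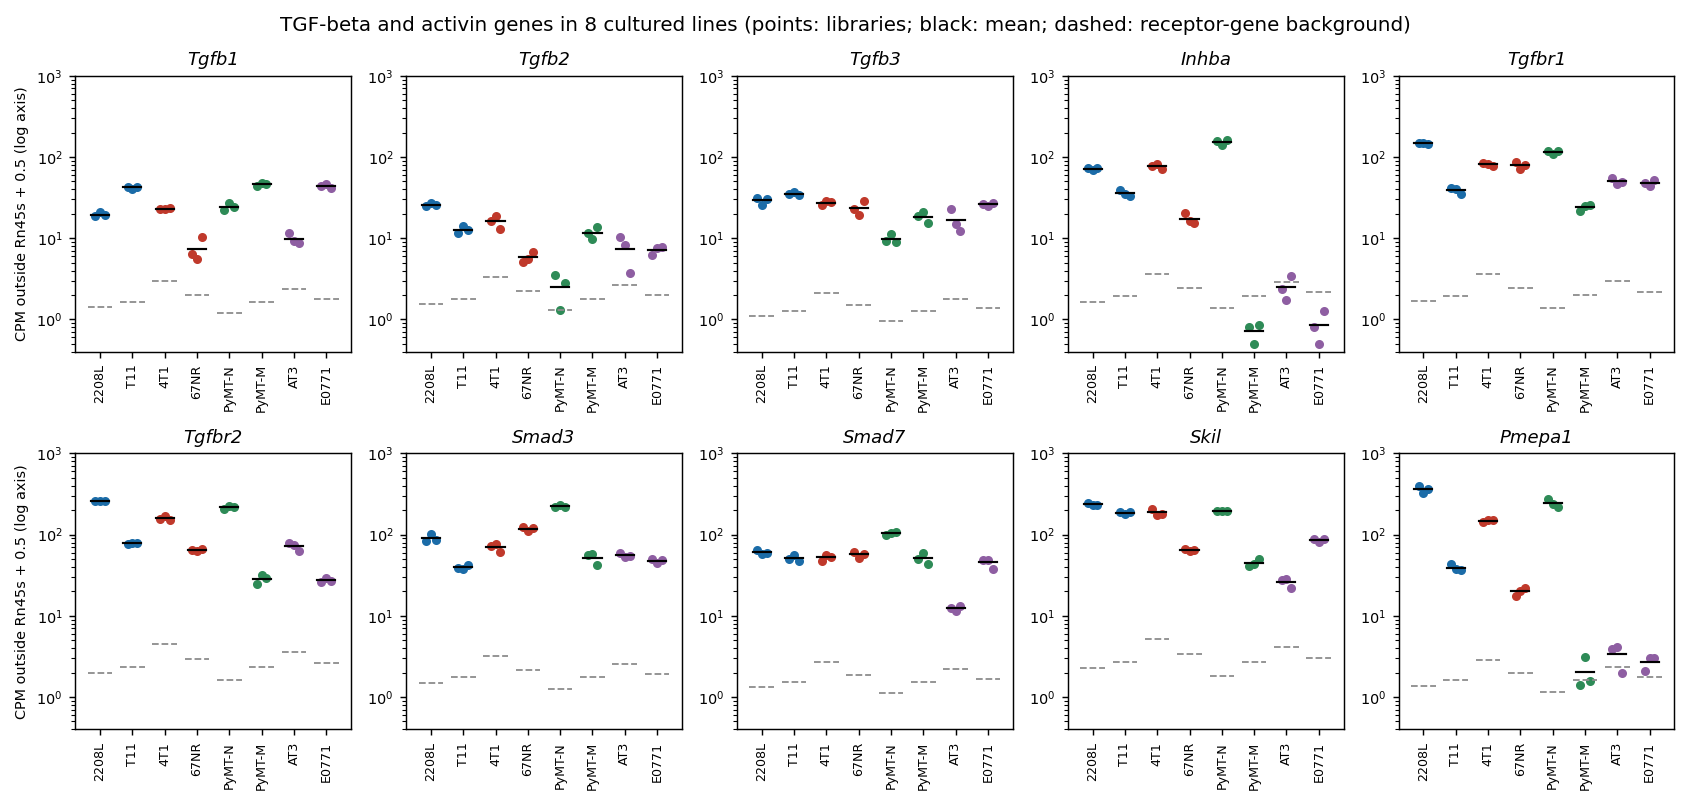
Levels of the 10 genes in the 8 cultured lines, 1 point per library, in CPM + 0.5 on a log axis, with a bar at the group mean and a dashed mark at the receptor background for a gene of that exon length. In PyMT-M, AT3 and E0771 the mean of Inhba lies below the mark and that of Pmepa1 at 1.39 to 1.75 times the background level, while Smad3 and Tgfbr1 lie far above it in all 8 lines.

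Inhba, the activin A subunit gene (ENSMUSG00000041324.14, mm10 chromosome 13, 16011851 to 16031621, plus strand), had the widest range. It stood at 157, 139.6 and 163 CPM in the 3 PyMT-N libraries, against 0.298, 0 and 0.364 CPM in the 3 PyMT-M libraries. It stood at 76.8, 80.6 and 70.5 CPM in 4T1, against 19.8, 15.8 and 15.01 CPM in 67NR. It stood at 72.2, 69.1 and 71.8 CPM in 2208L, against 38.7, 34.6 and 32.7 CPM in T11. No library of the first line of these 3 pairs overlapped one of the second. In AT3 the 3 libraries held 6, 7 and 12 counts (1.86, 1.22 and 2.96 CPM), against 1, 0 and 3 counts in E0771. The ratio of levels was 678 for PyMT-N over PyMT-M, where 2208 counts stood against 2 (95% counting interval 188 to 5605). For AT3 over E0771 it was 5.86, from 25 counts against 4 (2.03 to 23.2). In AT3, E0771 and PyMT-M the level per base was 0.84, 0.217 and 0.153 times that of the receptor genes, so that Inhba RNA was not detectable above background in these 3 lines. These intervals cover counting error only.

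By Inhba level the lines were ordered PyMT-N, 4T1, 2208L, T11, 67NR, AT3, E0771 and PyMT-M. Only the last step, E0771 over PyMT-M, was not called (edgeR, adjusted p = 0.912). The step from 4T1 to 2208L was called against this order, the fit placing 2208L above 4T1 (-0.28 ± 0.11, adjusted p = 0.0322). The called step from AT3 to E0771 lies between levels not above background. Because Inhba and Tgfbr2 went together across the lines (r = 0.92 over the 8 line means), the 250 bases before their start sites are shown, from RefSeq on GRCm38.p6, the build also named mm10. The Inhba stretch is chr13:16011601-16011850 on the plus strand and the Tgfbr2 stretch chr9:116175364-116175613 on the minus strand, both written 5′ to 3′ with motif matches in capitals.
Inhba: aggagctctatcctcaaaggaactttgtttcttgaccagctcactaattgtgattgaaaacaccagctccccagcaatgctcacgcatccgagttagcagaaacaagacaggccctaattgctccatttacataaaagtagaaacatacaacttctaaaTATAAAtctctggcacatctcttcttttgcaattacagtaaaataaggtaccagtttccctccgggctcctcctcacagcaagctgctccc
Tgfbr2: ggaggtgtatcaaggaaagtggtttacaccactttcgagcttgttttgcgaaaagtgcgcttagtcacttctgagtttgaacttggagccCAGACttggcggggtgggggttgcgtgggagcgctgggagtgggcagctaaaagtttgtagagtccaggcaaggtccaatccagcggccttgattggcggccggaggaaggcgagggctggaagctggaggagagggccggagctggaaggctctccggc
The capitals mark a TATA element in Inhba and a SMAD box in Tgfbr2. Of the 10 genes, 6 had a promoter in the RefSeq table, with 7 promoters of 300 bases in all. Tgfb3, Smad7, Skil and Pmepa1 had none. The SMAD box CAGAC was present in 3 of the 7 and in 49.6% of 32851 promoters of that length. The TATA element TATAAA was in 2 of 7 and in 13.6% of all. The AP-1 element TGANTCA was in 0 of 7 and in 7.81% of all. Both strands were searched, and overlapping matches of different motifs were not merged. A match describes letters only.

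Among the TGF-beta ligand genes, Tgfb1 (ENSMUSG00000002603.15, chromosome 7, 25687002 to 25705077), the main TGF-beta of immune and tumour cells, was highest in PyMT-M at 45.4 ± 2.54 CPM, E0771 at 43.6 ± 2.75 and T11 at 41.8 ± 1.24. Neighbours among these 3 were not called different, and T11 was called higher than the next line. PyMT-N (23.9 ± 2.65 CPM), 4T1 (22.7 ± 0.383) and 2208L (19.1 ± 1.04) lay in the middle, and AT3 (9.34 ± 1.61) and 67NR (6.92 ± 2.48) at the bottom, with called steps from PyMT-N to 4T1 and from 2208L to AT3. Tgfb2 (ENSMUSG00000039239.14, chromosome 1, 186622792 to 186705989) followed another order. It was highest in 2208L at 25.3 ± 1.32 CPM and lowest in PyMT-N at 2.02 ± 1.12, and the 6 lines between ran from 5.32 CPM in 67NR to 15.6 in 4T1. Above background it stood only in 2208L, with T11 just under the limit at 9.42 times. Tgfb3 (ENSMUSG00000021253.7, chromosome 12, 86056745 to 86079041) varied least, from 9.38 ± 1.27 CPM in PyMT-N to 34.6 ± 1.71 in T11, with called steps only between 2208L and 4T1 and between PyMT-M and AT3. Exons of Tgfb2 and Tgfb3 overlap opposite-strand gene models that have no line in the table. The strand setting of the counting is not given in the sources used here, so reads of those models cannot be told apart from theirs.

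Tgfbr2 (ENSMUSG00000032440.13, chromosome 9, 116084293 to 116175360), the ligand-binding kinase, stood at 261, 259 and 260.3 CPM in 2208L, 204, 228 and 221 in PyMT-N and 157, 169.6 and 151 in 4T1. It stood at 78.2 ± 1.33 CPM in T11, 71.5 ± 8.31 in AT3 and 64.8 ± 1.9 in 67NR, and at 27.98 ± 3.69 in PyMT-M and 26.9 ± 1.93 in E0771. Each of these 3 tiers was separated from the next by a called step, and PyMT-N over 4T1 and T11 over AT3 were called within them. Tgfbr1 (ENSMUSG00000007613.15, chromosome 4, 47353222 to 47414931), the signalling kinase, was highest in 2208L (147 ± 1.79 CPM) and PyMT-N (116 ± 5.95), which did not differ. It was lowest in T11 (38.6 ± 3.75) and PyMT-M (23.4 ± 2.28), which did. Smad3 (ENSMUSG00000032402.12, chromosome 9, 63646767 to 63757994) stood at 218, 232 and 219.5 CPM in PyMT-N, well above the next line, 67NR, at 122, 111 and 122. From 4T1 (69.3 ± 8.37) down through AT3, PyMT-M and E0771 to T11 (39.2 ± 2.3) no neighbours differed.

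Pmepa1 (ENSMUSG00000038400.15, chromosome 2, 173224458 to 173276533), which binds receptor SMADs, split the lines into 3 ranges. Its libraries held 398, 322 and 360.5 CPM in 2208L, 276, 238 and 220.4 in PyMT-N and 141, 150.2 and 151 in 4T1. T11 had 42.6, 36.9 and 36.4 CPM and 67NR 17.2, 19.98 and 21.3. AT3 (3.41, 3.65 and 1.48 CPM), E0771 (1.58, 2.55 and 2.52) and PyMT-M (0.893, 2.62 and 1.09) did not differ from each other as neighbours, and lay at 1.54, 1.75 and 1.39 times the receptor level per base. Every library of 2208L, PyMT-N and 4T1 lay above every library of the other 5 lines. Skil (ENSMUSG00000027660.16, chromosome 3, 31095058 to 31122577) was high in 4 lines, at 237 ± 8.41 CPM in 2208L, 196 ± 1.12 in PyMT-N, 187 ± 17.6 in 4T1 and 186 ± 7.04 in T11. It stepped down to E0771 (84.9 ± 4.19), 67NR (64.1 ± 1.53), PyMT-M (44.5 ± 4.39) and AT3 (25.6 ± 3.38), every one of these steps being called. Smad7 (ENSMUSG00000025880.11, chromosome 18, 75367529 to 75395935) lay close together in 6 lines, from 44.9 ± 6.4 CPM in E0771 to 60.7 ± 3.52 in 2208L, with called steps from 2208L to 67NR and from 67NR to 4T1 only. PyMT-N stood above these 6 at 99.7, 104 and 107 CPM and AT3 below at 12.1, 10.96 and 12.8.

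The pairs of lines that share a strain and differ in the column suffix were compared next. In 2208L against T11, 8 of the 10 genes were higher and 1 lower, where 22.7% of all genes were higher and 18.7% lower. The median log2 difference was 1.15 over the 10 genes and -0.03 over all genes. Pmepa1 was higher by 3.35 ± 0.11 (adjusted p = 5.45e-44). Tgfbr1 (2.04 ± 0.11) and Tgfbr2 (1.86 ± 0.10) were both higher, so ligand-binding and signalling receptor moved together. Smad3 (1.33 ± 0.12), Tgfb2 (1.17 ± 0.20), Inhba (1.13 ± 0.13), Skil (0.48 ± 0.09) and Smad7 (0.38 ± 0.12) were also higher. Tgfb1 was lower, with 18.2, 20.2 and 18.8 CPM in 2208L against 42.3, 40.4 and 42.8 CPM in T11 (-1.004 ± 0.15, adjusted p = 9.18e-09). Tgfb3 was not called, although its libraries did not overlap (30.7, 25.2 and 30.1 CPM in 2208L against 34.1, 36.6 and 33.3 in T11). Without T11 replicate 3 Smad7 was not called (adjusted p = 0.052).

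In 4T1 against 67NR, 6 genes were higher and 2 lower, against 23.6% and 24.3% of all genes, and the median log2 difference was 1.24 over the 10 genes and 0.11 over all genes. Pmepa1 was higher by 2.75 ± 0.12, Inhba by 1.99 ± 0.14 and Tgfbr2 by 1.12 ± 0.10. Tgfb1 was higher here, with 22.4, 22.5 and 23.1 CPM in 4T1 against 5.97, 5.05 and 9.74 in 67NR (1.56 ± 0.20), while in the other 3 pairs it was lower. Tgfb1 was below the limit for background in both lines, at 9.27 times the receptor level in 4T1 and 4.56 times in 67NR. Tgfb2 was below it in both lines too, at 5.55 times in 4T1 and 3.05 times in 67NR. Inhba was below it in 67NR only, at 8.76 times. Tgfb2 (1.37 ± 0.25) and Skil (1.37 ± 0.10) were higher. Smad3 was lower, with 71.8, 76.2 and 60.02 CPM in 4T1 against 122, 111 and 122 in 67NR (-0.95 ± 0.11, adjusted p = 2.59e-12). Smad7 was also lower (-0.29 ± 0.12, adjusted p = 0.0468), and this call was lost without any 1 of 10 libraries. The other genes, Tgfbr1 (-0.16 ± 0.10) and Tgfb3 (0.06 ± 0.16), were not called.

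In PyMT-N against PyMT-M all 10 genes were called, 7 higher and 3 lower, where 24.5% of all genes were higher and 20.1% lower. The median log2 difference was 2.42 over the 10 genes and -0.06 over all genes. The 3 lower genes were all TGF-beta ligand genes, Tgfb2 (-2.06 ± 0.30), Tgfb3 (-0.66 ± 0.19) and Tgfb1 (-0.64 ± 0.13). The 7 higher genes were the activin gene Inhba (9.50 ± 0.26), both receptors (3.27 for Tgfbr2 and 2.62 for Tgfbr1), Smad3 (2.402) and the 3 feedback inhibitors. Of these Pmepa1 differed by 7.64 ± 0.19, Skil by 2.44 ± 0.10 and Smad7 by 1.33 ± 0.11. The Pmepa1 libraries held 3532 counts in PyMT-N against 13 in PyMT-M, a ratio of levels of 167 (95% counting interval 97.5 to 314).

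AT3 against E0771 gave another picture. Here 2 genes were higher and 4 lower, against 20.4% and 25.3% of all genes, with medians of -0.08 over the 10 genes and 0.08 over all genes. Tgfbr2 (1.27 ± 0.11) and Inhba (2.32 ± 0.62) were higher, Inhba at a level not above background in either line. Tgfb1 was lower (-2.37 ± 0.15), with 11.2, 8.7 and 8.15 CPM in AT3 against 43.6, 46.3 and 40.8 in E0771. Smad7 (-2.03 ± 0.15), Skil (-1.83 ± 0.11) and Tgfb3 (-0.82 ± 0.16) were lower too. In AT3, Tgfb1 (4.93 times the receptor level), Smad7 (7.05) and Skil (7.04) were under the limit for background, which they passed in E0771. Pmepa1 (0.22 ± 0.35), Tgfbr1 (-0.05 ± 0.11), Smad3 (0.12 ± 0.11) and Tgfb2 (-0.11 ± 0.25) were not called. Pmepa1 was near background in both lines, at 1.54 times the receptor level in AT3 and 1.75 times in E0771, so its difference says little.

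**Figure D2:**
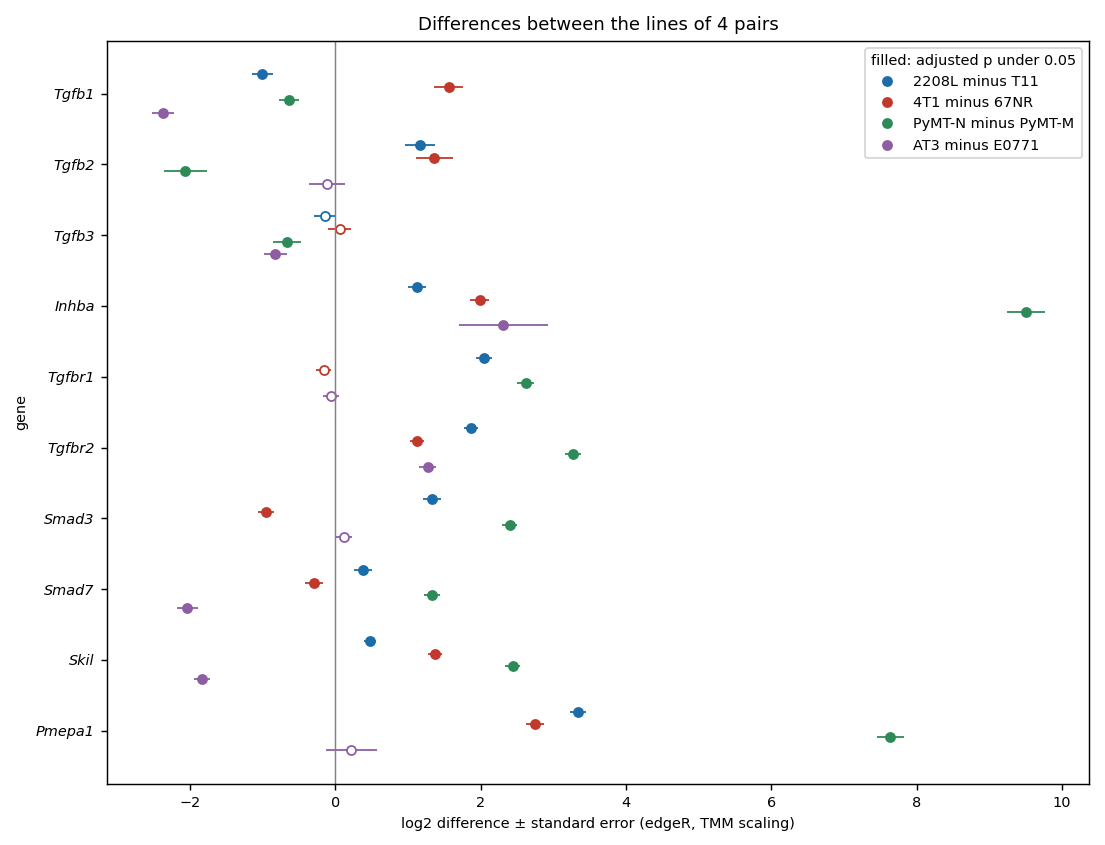
Log2 difference ± SE (edgeR) of each of the 10 genes in the 4 pairs of lines, 3 libraries per line, with filled points at an adjusted p below 0.05. Pmepa1 lies above 2.7 in 3 pairs and at 0.22 in AT3 against E0771, where it was near background in both lines. Tgfb1 is below 0 in every pair except 4T1 against 67NR.

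Averaged over the 4 pairs, the lines with the suffix Epi against those with Mes had 6 genes higher and 3 lower (23.7% and 24% of all genes; medians 0.67 over the 10 genes and 0.03 over all). Inhba (3.73 ± 0.21), Pmepa1 (3.49 ± 0.15), Tgfbr2 (1.88 ± 0.05), Tgfbr1 (1.11 ± 0.06), Smad3 (0.72 ± 0.06) and Skil (0.62 ± 0.05) were higher. Tgfb1 (-0.61 ± 0.08), Tgfb3 (-0.39 ± 0.08) and Smad7 (-0.15 ± 0.06) were lower. The call of Smad7 was lost without any 1 of 15 libraries. These averages hide the differences between pairs described above. Tgfbr2 was the only one of the 10 genes besides Inhba that was higher in all 4 pairs.

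Of 70 other genes of the pathway in 6 lists, 67 were tested in the lines, and 62 of these differed among them, where 89.1% of all genes did. In 2208L against T11 19 were higher and 21 lower, against 22.7% and 18.7% of all genes. The counts were 19 and 23 in 4T1 against 67NR (23.6% and 24.3% of all genes), 30 and 14 in PyMT-N against PyMT-M (24.5% and 20.1%) and 17 and 25 in AT3 against E0771 (20.4% and 25.3%). Medians of the log2 difference over the 67 genes were -0.08, -0.01, 0.14 and -0.08 in the same order. Among genes of the latent complex and its activation, Thbs1, a matrix protein that can activate latent TGF-beta, was higher in all 4 pairs (3.00 ± 0.09, 2.51 ± 0.09, 8.71 ± 0.15 and 3.04 ± 0.15 in that order). Itgb6, a subunit of the integrin that activates latent TGF-beta on epithelium, was higher in 2208L (2.62 ± 0.19), 4T1 (1.92 ± 0.19) and PyMT-N (3.07 ± 0.22) than in its partner line. Ltbp4, which anchors latent complexes, was lower in 2208L (-1.49 ± 0.23) and higher in 4T1 (2.67 ± 0.19).

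Among the other receptors, the co-receptor Tgfbr3, betaglycan, was lower in 2208L (-0.86 ± 0.16), 4T1 (-2.69 ± 0.15) and PyMT-N (-2.78 ± 0.17) and higher in AT3 (1.81 ± 0.11). The co-receptor Eng, endoglin, was lower in 2208L (-1.16 ± 0.27), PyMT-N (-4.12 ± 0.17) and AT3 (-0.48 ± 0.11) and higher in 4T1 (2.49 ± 0.17). Fst, follistatin, which binds and neutralises activin, was higher in PyMT-N (5.58 ± 0.24), the line with the highest Inhba. Fst stood at 49.96 ± 2.49 CPM there against 1.26 ± 0.175 in PyMT-M, and at 63.6 ± 1.6 CPM in 2208L against 83.7 ± 11.5 in T11.

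The 20 TGF-beta response genes went in both directions in every pair. They were 8 higher and 9 lower in 2208L against T11 (22.7% and 18.7% of all genes), 6 and 9 in 4T1 against 67NR (23.6% and 24.3%), 10 and 7 in PyMT-N against PyMT-M (24.5% and 20.1%), and 4 and 12 in AT3 against E0771 (20.4% and 25.3%). Fn1, fibronectin, was higher in 2208L (3.70 ± 0.10), PyMT-N (7.40 ± 0.13) and AT3 (4.72 ± 0.12). Ctgf, a matricellular protein gene, was higher in 2208L (3.11 ± 0.10), 4T1 (3.83 ± 0.11) and PyMT-N (5.43 ± 0.12). Ctgf averaged 498 ± 32.3 CPM in 2208L, 405 ± 14.5 in 4T1 and 479.6 ± 16.6 in PyMT-N, and no more than 62.8 CPM in the other 5 lines. Acta2, smooth muscle actin, was lower in 2208L (-2.80 ± 0.21), PyMT-N (-5.31 ± 0.16) and AT3 (-3.34 ± 0.14). Of 8 other Smads and partners tested, read against the same shares of all genes, 2 were higher and 2 lower in 2208L against T11, 2 and 4 in 4T1 against 67NR, 4 and 1 in PyMT-N against PyMT-M, and 0 and 4 in AT3 against E0771. Tgif1, a SMAD co-repressor, was higher in 2208L (1.01 ± 0.13), 4T1 (0.30 ± 0.12) and PyMT-N (1.92 ± 0.11) and lower in AT3 (-0.63 ± 0.13).

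Likeness of the 10 genes to each other was described by Pearson's r of mean log2(CPM + 0.5) over the 8 line means. These are few, differ in medium and passage for some lines, and may share library batches. Inhba and Pmepa1 were the most alike (r = 0.97), followed by Tgfbr2 and Pmepa1 (0.94), Inhba and Tgfbr2 (0.92), Skil and Pmepa1 (0.87) and Tgfbr1 and Tgfbr2 (0.86). Tgfb1 was less like them, with r = -0.45 to Tgfbr1, -0.29 to Tgfbr2, -0.21 to Inhba, -0.12 to Pmepa1 and 0.33 to Skil. Over the 8 means of sorted groups Tgfbr1 and Pmepa1 were the most alike (r = 0.98), while Inhba, which is near background there, had r = -0.42 to Pmepa1 and -0.68 to Tgfbr2. Over all 16 groups and 8782 genes with a mean log2 CPM of at least 4, the gene most like each member was Hmox1 for Tgfb1 (r = 0.93), Ikzf2 for Tgfb2 (0.89), Aph1b for Tgfb3 (0.72), Ptprk for Inhba (0.91), Gnaq for Tgfbr1 (0.93), B4galnt1 for Tgfbr2 (0.91), Slco2a1 for Smad3 (0.86), Fam126a for Smad7 (0.92), Cnnm4 for Skil (0.86) and Med14 for Pmepa1 (0.90). Of genes in the pathway lists, Smurf2, a ubiquitin ligase that acts with SMAD7 on the receptor, was the third most like Smad7 (r = 0.90).

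**Figure D3:**
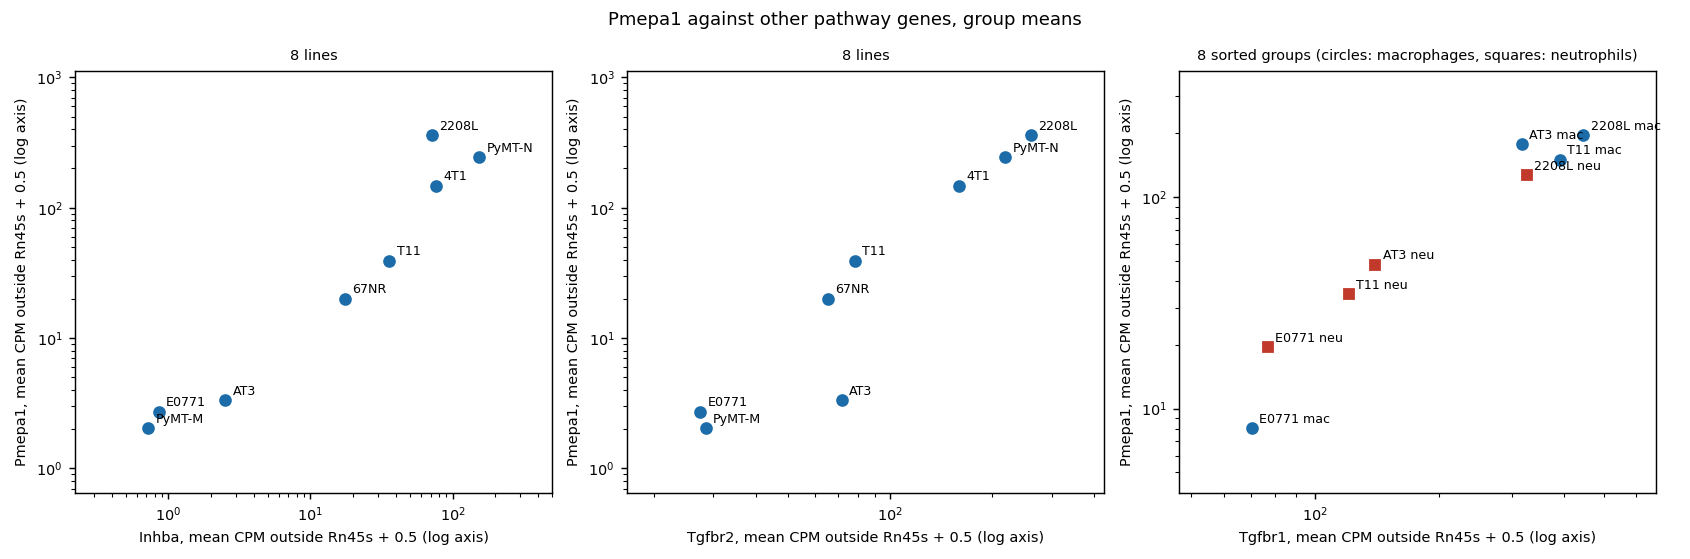
Mean level of Pmepa1 against those of Inhba and Tgfbr2 in the 8 lines and against that of Tgfbr1 in the 8 sorted groups, 1 point per group of 3 libraries, in CPM + 0.5 on log axes. PyMT-M, E0771 and AT3 lie at the low end of Pmepa1 among lines and E0771 macrophages among sorted groups, and AT3 lies to the right of the other low lines for Tgfbr2.

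In the sorted cells, levels come from bulk RNA of a gate, so fewer cells of a type and less RNA per cell cannot be told apart. The first question was whether the 10 genes differ between tumours within a cell type. In macrophages 8 of the 10 genes had enough counts to be tested, Tgfb2 and Inhba falling under the filter, and 6 of the 8 differed among the 4 tumours, where 35.5% of 14715 genes did. They were Tgfb1, Tgfb3, Tgfbr1, Tgfbr2, Skil and Pmepa1, all but Smad3 and Smad7. In the order of levels, 6 of 24 pairs of neighbouring tumours differed, where 15.8% of all tests of a gene between a pair of tumours passed. That share again covers all pairs of tumours, not only neighbours.

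Pmepa1 in macrophages was low in 1 tumour. It stood at 158, 157 and 218 CPM in AT3 macrophages, against 2.72, 10.2 and 9.78 CPM in E0771 macrophages. It stood at 209.9, 201 and 176 CPM in 2208L macrophages, against 150.3, 142 and 156 CPM in T11 macrophages. All 3 E0771 libraries, with 2, 7 and 11 counts, lay below every other macrophage library, and their mean was 2.81 times the receptor level per base. Tgfbr1 went the same way, with 288, 281 and 381 CPM in AT3 macrophages against 27.2, 107 and 75.6 in E0771 macrophages, and 478, 423 and 438 in 2208L against 361, 407 and 408 in T11 macrophages. Tgfb1 was not low in E0771: it averaged 214 ± 51.6 CPM in AT3 macrophages and 245 ± 65.7 in E0771 macrophages, which were not called different, 140.1 ± 33.7 in 2208L and 59.9 ± 20.8 in T11 macrophages, with a called step at each of the last 2. Tgfbr2 was highest in T11 macrophages at 630.3, 652 and 523 CPM and lowest in E0771 macrophages at 179.7, 202 and 133.

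In AT3 against E0771 macrophages 5 of 8 genes tested were higher and none lower, against 9.68% and 8.69% of all genes. The median log2 difference was 1.40 over the 8 genes and -0.06 over all genes. Pmepa1 was higher by 4.95 ± 0.36 (adjusted p = 2.86e-11), Tgfbr1 by 2.65 ± 0.31, Tgfb3 by 1.74 ± 0.48, Skil by 1.24 ± 0.28 and Tgfbr2 by 0.79 ± 0.24. Without the first E0771 macrophage library, labelled BALB/C, the same comparison gave 5 calls, with Pmepa1 at 4.62 and Tgfbr1 at 2.30. With library size as the only scaling, or with these 6 libraries fitted alone, the count was 3. Pmepa1, Tgfbr1 and Skil kept their calls in both, and Tgfbr2 also lost its call without AT3 replicate 1 or 2 or without E0771 replicate 3. Markers of other cell types moved with this comparison too. Dendritic cell markers (5 genes) summed to 12.1 to 17.8 CPM in AT3 macrophages and 169 to 541 CPM in E0771 macrophages, T and NK cell markers (8 genes) to 20.2 to 25.2 and 188 to 208, and endothelial markers (5 genes) to 42.97 to 54.3 and 246 to 300.1. B cell (4 genes) and platelet markers (6 genes) summed to 6.05 to 18.7 and 298 to 429 CPM in AT3 macrophages, and to 35.6 to 103 and 444 to 984 in E0771 macrophages. Neutrophil markers summed to 110 to 155 CPM in AT3 macrophages and 286 to 359 in E0771 macrophages, and macrophage markers to 12888 to 14178 and 6308 to 11219. Their part in the differences was not tested.

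In 2208L against T11 macrophages 2 genes were higher and 1 lower, against 7.77% and 7.9% of all genes, with medians of 0.56 over the 8 genes and 0.06 over all genes. Tgfb3 was higher (1.70 ± 0.43), with 48.6, 47.5 and 38.3 CPM in 2208L against 10.5, 14.2 and 13.6 in T11 macrophages. Tgfb1 was higher (1.15 ± 0.29) and Tgfbr2 lower (-0.75 ± 0.23). Pmepa1 (0.29 ± 0.26), Tgfbr1 (0.08 ± 0.28) and Skil (0.50 ± 0.27) were not called. Without T11 macrophage replicate 2 the count was 1, Tgfb1 (0.95, adjusted p = 0.0765) and Tgfbr2 (-0.70, adjusted p = 0.113) not being called. The call of Tgfbr2 was also lost without 2208L replicate 2 or 3 or T11 replicate 1. Epithelial markers summed to 325 to 503 CPM in 2208L macrophages and 17.2 to 25.6 in T11 macrophages, T and NK cell markers to 112 to 203 and 23.2 to 28.96, and endothelial markers to 134 to 200.4 and 49.3 to 85.4. B cell and dendritic cell markers summed to 29.1 to 143 and 37.4 to 121 CPM in 2208L macrophages, and to 11.8 to 20.5 and 21.6 to 21.7 in T11 macrophages. Macrophage markers summed to 9547 to 15072 CPM in 2208L macrophages and 6019 to 7805 in T11 macrophages. Neutrophil markers ran the other way, at 248 to 297 CPM in 2208L macrophages and 3154 to 7929 in T11 macrophages. Nearly all of the T11 sum was Mmp9, as given above. The part of these markers in the differences was not tested.

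In neutrophils 6 of 10 genes differed among the 4 tumours (Tgfb1, Tgfbr1, Tgfbr2, Smad3, Skil and Pmepa1), where 31.4% of 18158 genes did. Without the T11 libraries 5 differed, all but Tgfb1 (adjusted p = 0.181). In the order of levels 6 of 30 neighbouring pairs differed, where 12.2% of tests over all pairs of tumours, not only neighbours, passed. In all 6 the upper group was 2208L or the lower one T11. Pmepa1 stood at 113, 126 and 139.9 CPM in 2208L neutrophils, against 37.1, 20.4 and 45.4 in T11 neutrophils. It stood at 74.3, 26.2 and 41.4 CPM in AT3 neutrophils, against 21.5, 16.4 and 19.1 in E0771 neutrophils. Skil, the highest of the 10 genes per base of exon in neutrophils of each tumour, stood at 587, 499 and 535 CPM in 2208L neutrophils, against 259.9, 198 and 235 in T11 neutrophils. No 2 groups of these 3 pairs overlapped. Tgfbr1 averaged 325 ± 40.8 CPM in 2208L, 120.2 ± 9.16 in T11, 139 ± 22.5 in AT3 and 76.2 ± 21.2 in E0771 neutrophils.

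In 2208L against T11 neutrophils 6 genes were higher and none lower, where 19.4% of all genes were higher and 12.5% lower (medians 1.34 over the 10 genes and -0.21 over all genes). The values were 2.50 ± 0.31 for Pmepa1, 2.08 ± 0.33 for Tgfbr1, 1.85 ± 0.37 for Skil, 1.82 ± 0.37 for Tgfb1, 1.69 ± 0.32 for Tgfbr2 and 0.86 ± 0.30 for Smad3. Receptor genes were 5234 CPM in 2208L against 15338 in T11 neutrophils, and macrophage markers 3378 to 4282 against 589 to 1297 CPM, so background and macrophage RNA move with this comparison. Epithelial markers summed to 456 to 553 CPM in 2208L neutrophils and 165 to 175 in T11 neutrophils, while fibroblast markers (7 genes) summed to 226 to 334 and 534 to 579.6, and dendritic cell markers to 43.9 to 94.6 and 139 to 185.5. Endothelial markers summed to 123 to 165 CPM in 2208L neutrophils and 221 to 410 in T11 neutrophils. T and NK cell markers summed to 80.2 to 113 and 153 to 181 CPM in the same order. B cell markers summed to 27.8 to 72.2 and 108 to 137 CPM, and platelet markers to 37.3 to 55.7 and 116 to 142. Mast cell markers summed to 32.9 to 43.3 and 111 to 177 CPM. The part of all these in the differences was not tested. With factors from genes above background, Pmepa1 and Tgfbr1 alone kept their calls, Tgfb1 (0.35), Tgfbr2 (0.21) and Skil (0.37) did not pass, Smad3 turned to -0.62 and Tgfb2 was lower (-1.95). Without 1 of 4 libraries Smad3 was not called.

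In AT3 against E0771 neutrophils 3 genes were higher and none lower, against 2.37% and 1.82% of all genes, with medians of 0.70 over the 10 genes and 0.04 over all genes. They were Pmepa1 (1.48 ± 0.36, adjusted p = 0.0146), Skil (1.25 ± 0.37, adjusted p = 0.043) and Tgfbr1 (1.17 ± 0.34, adjusted p = 0.0396). Per base of exon, Pmepa1 was not above background in either group, and Tgfbr1 passed in AT3 neutrophils only. The count fell to 0 without any of the 3 E0771 libraries, the BALB/C-labelled one included, and was 0 with these 6 libraries fitted alone. Of the 12 neutrophil libraries, any 1 of 10 cost Tgfbr1 its call when left out, any 1 of 10 cost Skil its call, and any 1 of 3 cost Pmepa1 its call. With all 12 neutrophil libraries, 5 genes had an unadjusted p under 0.05, and the DESeq2 test called 3. Macrophage markers summed to 1928 to 2919 CPM in AT3 neutrophils and 1233 to 1239 in E0771 neutrophils, and neutrophil markers to 10919 to 23807 and 6139 to 9192. Dendritic cell, B cell and epithelial markers summed to 48.3 to 117, 26.2 to 71.1 and 88.6 to 129.6 CPM in AT3 neutrophils, and to 121 to 147, 72.2 to 94.1 and 134 to 149 in E0771 neutrophils. Their part in the differences was not tested.

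**Figure D4:**
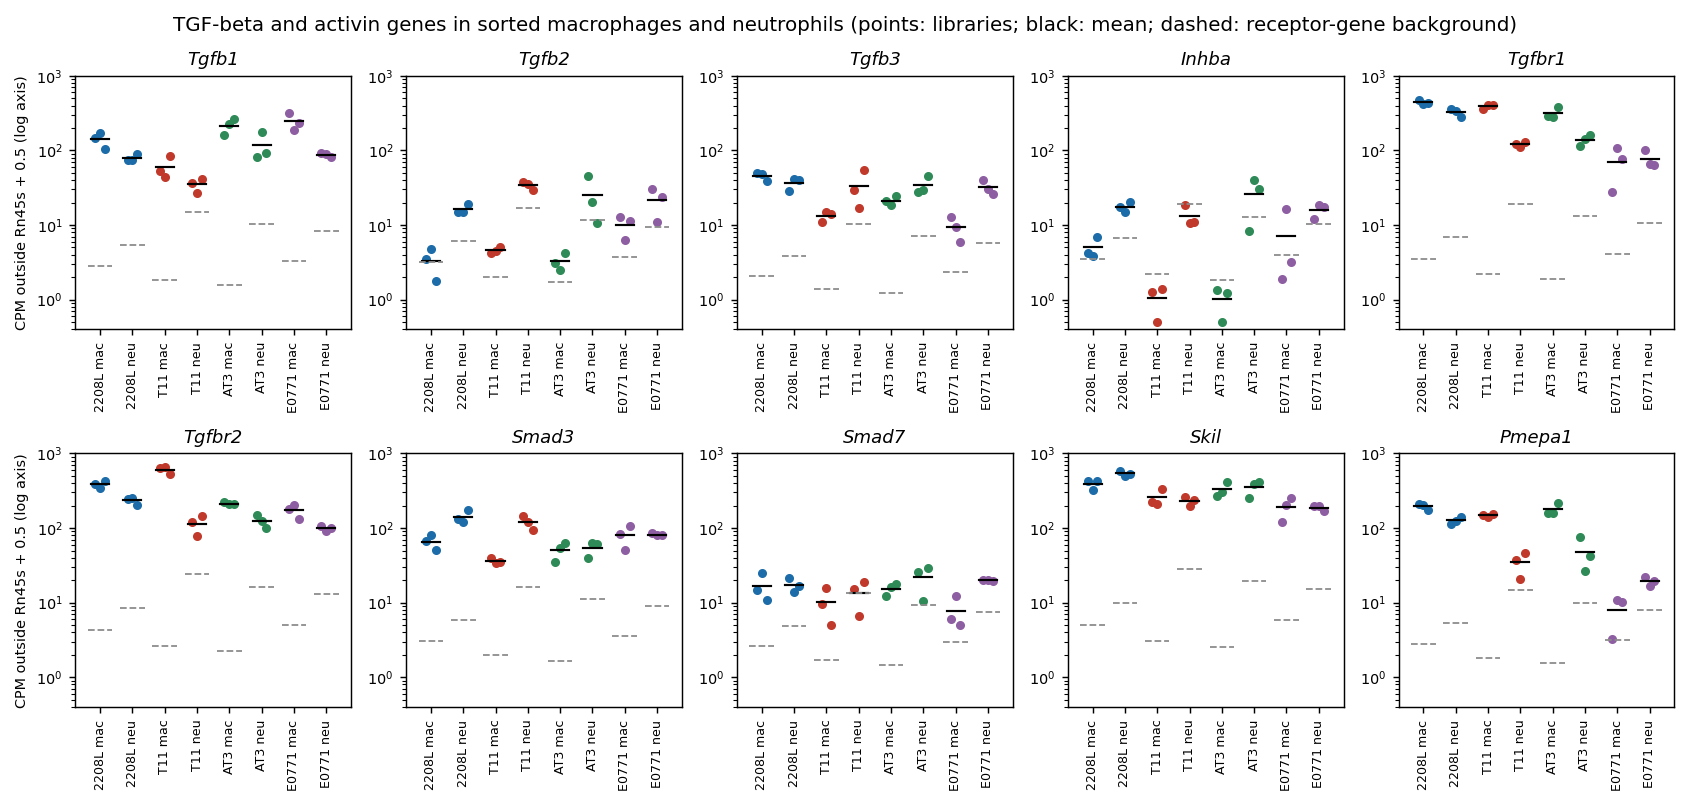
Levels of the 10 genes in macrophages and neutrophils of the 4 tumours, 1 point per library, in CPM + 0.5 on a log axis, with a bar at the group mean and a dashed mark at the receptor background for a gene of that exon length. Pmepa1 and Tgfbr1 are low in E0771 macrophages, and all 10 genes of T11 neutrophils lie less than 10 times above the mark.

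Of the 70 other pathway genes, 57 were tested in macrophages and 62 in neutrophils. Among tumours 34 differed in macrophages and 36 in neutrophils, against 35.5% and 31.4% of all genes. In AT3 against E0771 macrophages 13 were higher and 5 lower (9.68% and 8.69% of all genes), with Thbs1 (3.01 ± 0.37), Fn1 (4.43 ± 0.49), the integrin subunit Itgb5 (2.31 ± 0.25) and Ski, the relative of SKIL (1.35 ± 0.24), among the higher. In AT3 against E0771 neutrophils 8 were higher and 1 lower (2.37% and 1.82% of all genes), again with Fn1 (4.84 ± 0.64), Thbs1 (1.65 ± 0.48) and Ski (1.29 ± 0.35). In 2208L against T11 neutrophils 27 were higher and 4 lower (19.4% and 12.5% of all genes), and in 2208L against T11 macrophages 14 and 2 (7.77% and 7.9%). Itgav, the integrin subunit that pairs with Itgb6 and Itgb8, was lower in 2208L than in T11 macrophages (-2.10 ± 0.26), with 277 ± 5.37 CPM in 2208L against 1099.6 ± 84.8 in T11 macrophages.

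Macrophages were then set against neutrophils of the same tumours. Macrophage and neutrophil libraries that share a replicate number within a tumour also share a number in their column names. The main fit did not pair them. On the mean of the 4 tumours 5 genes were higher in macrophages and 2 lower, where 30.3% of 20364 genes were higher and 45.7% lower. The median log2 difference was 0.40 over the 10 genes and -0.53 over all genes. Tgfbr2 was higher by 1.91 ± 0.15, Tgfb1 by 1.71 ± 0.17, Pmepa1 by 1.62 ± 0.18, Tgfbr1 by 1.54 ± 0.17 and Skil by 0.64 ± 0.16. Inhba (-2.59 ± 0.44) and Tgfb2 (-1.63 ± 0.31) were lower, neither above 3.02 times the receptor level in any of the 8 groups, so that their fitted values rest on few counts. Tgfb3 (-0.17 ± 0.21), Smad3 (-0.00 ± 0.19) and Smad7 (0.16 ± 0.28) were not called. Skil kept neither its call nor its sign under all scalings: it was -0.10 with library size and -0.41 with factors from genes above background, and without the T11 libraries it was 0.27 (adjusted p = 0.206). Tgfbr2, Tgfb1, Pmepa1 and Tgfbr1 stayed higher and called under every setting tried.

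By tumour, 5 genes were higher and 2 lower in T11 macrophages (29.4% and 36.4% of all genes), 3 and 1 in 2208L (5.12% and 3.11%), 4 and 2 in AT3 (21.2% and 28.7%), and 2 and 1 in E0771 macrophages (13.2% and 4.97%). Tgfb1 and Tgfbr2 were called higher in macrophages of all 4 tumours. The Tgfb1 libraries of AT3 macrophages (159 to 261 CPM) and AT3 neutrophils (80.6 to 176 CPM) overlapped. Tgfb1 stood at 316, 186 and 234 CPM in E0771 macrophages, against 92.5, 89.6 and 80.7 CPM in E0771 neutrophils, a difference of 2.06 ± 0.34. Tgfb1 stood at 53.1, 43.3 and 83.3 CPM in T11 macrophages, against 35.5, 26.5 and 41.3 in T11 neutrophils (2.05 ± 0.38). In T11 neutrophils Tgfb1 was 2.38 times the receptor level, under the limit for background. The T11 difference also depends on scaling, which moved the median of all genes there from -0.79 to as low as -2.65. For Tgfbr2 the differences were 3.68 ± 0.31 in T11, 0.998 ± 0.28 in 2208L, 1.61 ± 0.29 in AT3 and 1.37 ± 0.30 in E0771 tumours. In 2208L tumours the count of 4 was lost whole without macrophage replicate 1, neutrophil replicate 1 or neutrophil replicate 3, and was 1 without neutrophil replicate 2. Tgfb3 was lower in E0771 macrophages (-1.31 ± 0.48, adjusted p = 0.0488), and lost its call without any 1 of 15 libraries.

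Whether this difference itself varied between tumours was tested by the interaction, which 6 of the 10 genes passed, where 27.5% of all genes did. They were Pmepa1 (adjusted p = 1.04e-07), Tgfbr2 (5.67e-06), Tgfbr1 (8.84e-05), Smad3 (0.0193), Skil (0.0392) and Inhba (0.0452). Pmepa1 was higher in macrophages of T11 (3.38 ± 0.33), AT3 (2.85 ± 0.31) and 2208L tumours (0.93 ± 0.28), and in E0771 tumours its difference was -0.68 ± 0.46, not called. Tgfbr1 was higher in macrophages of T11 (2.99 ± 0.34) and AT3 tumours (1.98 ± 0.33), and was not called in 2208L (0.75 ± 0.31) and E0771 tumours (0.46 ± 0.35). Without the T11 libraries, whose neutrophils had the highest background, only Pmepa1 passed the interaction (adjusted p = 0.000411). Inhba lost its call without any 1 of 17 libraries and Skil without any 1 of 10, and Skil lost it under each of 4 other scalings, under which Tgfb3 passed. Without 2208L macrophage replicate 3 the count was 3. Without the BALB/C-labelled E0771 neutrophil library it was 5, Inhba being lost (adjusted p = 0.0857), and without the E0771 macrophage one it was 6. Macrophage markers in the neutrophil libraries also differed between tumours, and their part in the interaction was not tested.

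**Figure D5:**
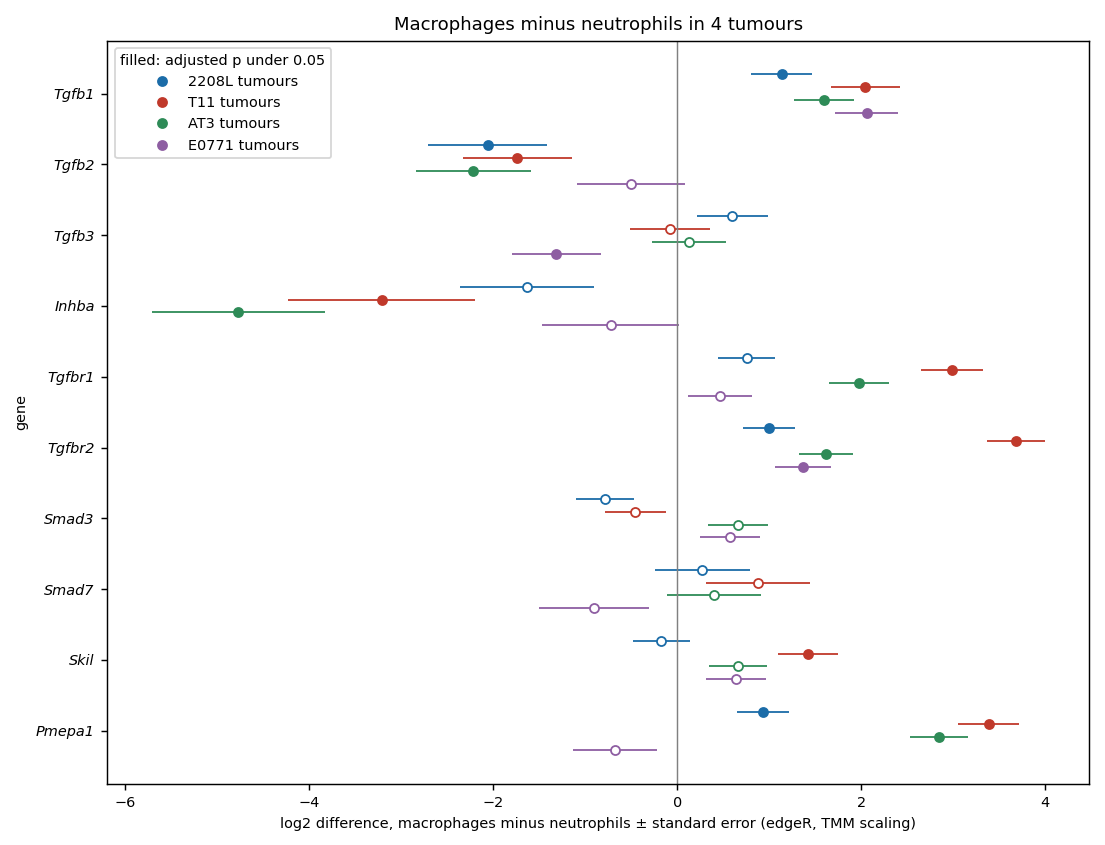
Log2 difference ± SE (edgeR) of macrophages against neutrophils for the 10 genes in each of the 4 tumours, 3 libraries per group, with filled points at an adjusted p below 0.05. Pmepa1 lies between 0.93 and 3.38 in T11, 2208L and AT3 tumours and at -0.68 in E0771 tumours.

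Of 68 other pathway genes tested between the cell types, 25 were higher in macrophages and 21 lower, against 30.3% and 45.7% of all genes. Nrros, which tethers latent TGF-beta on myeloid cells, was higher (1.61 ± 0.17), at 622 ± 150.2 CPM in E0771 macrophages against 228 ± 35.7 in E0771 neutrophils. Furin, which cleaves the ligand precursor (1.52 ± 0.18), the type I receptor Acvrl1 (1.79 ± 0.18) and Tgfbi, a TGF-beta-induced matrix protein (2.22 ± 0.20), were higher too. Tgfbi averaged 2580.3 ± 194 CPM in AT3 macrophages and 925 ± 310.0 in AT3 neutrophils. Tgfbr3 was lower in macrophages (-1.09 ± 0.20).

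Last, sorted cells were set against the cultured lines of the same 4 names. Culture, sorting, RNA kit and depth differ with the cell type here and cannot be told apart from it. In macrophages 5 genes were higher and 5 lower than in the lines, where 15% of 21628 genes were higher and 43.7% lower. Tgfb1 (1.94 ± 0.13), Pmepa1 (1.53 ± 0.17), Tgfbr1 (1.38 ± 0.11), Tgfbr2 (1.27 ± 0.10) and Skil (0.85 ± 0.11) were higher. Inhba (-2.62 ± 0.50), Smad7 (-2.29 ± 0.15), Tgfb2 (-1.99 ± 0.23), Tgfb3 (-1.15 ± 0.15) and Smad3 (-0.63 ± 0.12) were lower. The sign of Smad3 turned under 3 other scalings, to between 0.01 and 0.10. Tgfb1 stood at 59.9 to 245 CPM in macrophage groups and at 9.34 to 43.6 CPM in the lines of the same names. The feedback genes did not go together: Pmepa1 and Skil were higher and Smad7 lower, Smad7 standing at 7.2 to 16.3 CPM in macrophage groups and 11.96 to 60.7 CPM in the lines.

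In neutrophils 2 genes were higher and 4 lower than in the lines, where 49.5% of all genes were higher and 35.9% lower. Smad7 was lower (-2.399 ± 0.15). Tgfb3 (-0.92 ± 0.14), Tgfbr2 (-0.57 ± 0.10) and Smad3 (-0.57 ± 0.12) were lower and Tgfb1 (0.30 ± 0.14) and Skil (0.29 ± 0.11) higher, Tgfb1 losing its call without any 1 of 28 libraries. The median over all genes was 0.57 in this comparison and between 1.31 and 2.00 under the other scalings, which turned the sign of Tgfbr2, Smad3 and, in 3 of them, Tgfb3. Of the 10 genes only Smad7 was lower under every setting tried. In both cell types Nrros was far higher than in the lines, by 5.64 ± 0.16 in macrophages and 4.11 ± 0.17 in neutrophils, with 4.36 ± 0.598 CPM in the E0771 line. Hmga2, a response gene of embryonic and tumour cells, was lower in macrophages (-4.61 ± 0.15) and in neutrophils (-4.00 ± 0.14).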

How the data were processed

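RNA was measured in 48 libraries in 16 groups of 3, taken from the labels. The authors deposited 1 table of raw read counts per gene symbol. The submitters used bcl2fastq 2.17 and then STAR 2.4.2a on the mouse build mm10, per the submitters' processing notes. The counting program, annotation and strand setting are not given in the sources used here. The labels state an RNA miniprep kit for lines and a microprep kit for sorted cells. Rn45s took 55.0 to 76.2% of macrophage counts, 26.8 to 70.3% of neutrophil counts and 3.88 to 14.9% of line counts, so levels were computed as CPM of the deposited counts outside it. A single library thus rests on 470712 to 5749088 counts, and few counts limit Inhba, Tgfb2 and Smad7 in sorted cells.

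Tests used edgeR 4.0.16 (quasi-likelihood, TMM factors, filterByExpr with a minimum count of 10 and total of 15) in R 4.3.3 with limma 3.58.1, separately for 24 line, 12 neutrophil, 12 macrophage, 24 sorted and all 48 libraries. Alternatives were other factors, no filter, no Rn45s, DESeq2 1.42.0, only the groups compared, a replicate block and each library left out. The code was tested on simulated counts. The 10 genes, the lists and the tests were chosen with earlier results of these data known. All 10 genes are named, and of other pathway genes at most 4 of each list, by size among called genes with a mean log2 CPM of at least 4. Replicate pairs differed by more than sampling noise (chi-square per degree of freedom 1.31 to 19.0 over 48 pairs), so each library was counted once. Background came from 1452 olfactory and vomeronasal receptor genes, 1435 of them with an exon length. Column names carrying PyMTE were read as PyMT-N by exclusion.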

Additional observations from a re-analysis of the deposited data

Results flagged for a closer look

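For 6 of the 10 genes the difference between macrophages and neutrophils itself differed among the 4 tumours (edgeR F test of the interaction, adjusted over 20364 genes, 27.5% of which passed). For Pmepa1 the adjusted p was 1.04e-07, with differences of 3.38 in T11, 0.93 in 2208L, 2.85 in AT3 and -0.68 in E0771 tumours. For Tgfbr2 it was 5.67e-06 (3.68, 1.00, 1.61 and 1.37 in the same order) and for Tgfbr1 8.84e-05 (2.99, 0.75, 1.98 and 0.46). Smad3 had an adjusted p of 0.0193 (-0.45, -0.78, 0.66 and 0.58), Skil 0.0392 (1.42, -0.17, 0.66 and 0.64) and Inhba 0.0452 (-3.21, -1.63, -4.77 and -0.72). The Inhba values rest on few counts, its level being at most 2.71 times that of the receptor genes in any sorted group. Inhba lost its call without any 1 of 17 libraries and Skil without any 1 of 10. Without the T11 libraries only Pmepa1 passed (0.000411). Receptor background was highest in T11 neutrophils, at 15338 CPM. Summed macrophage markers in neutrophils averaged 1012 CPM in T11, 3979 in 2208L, 2544 in AT3 and 1235 in E0771 tumours. The part of background and of macrophage RNA in these results was not tested.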

How the results depend on the processing

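Of 202 counts of called genes under other settings, 194 stayed within 1.5 times the reported count. In AT3 against E0771 neutrophils the count of 3 became 1 with factors from genes above background, 0 with only the groups compared and 1 with the replicate block. In AT3 against E0771 macrophages the count of 5 became 3 with library size only and 3 with only the groups compared. In neutrophils against lines the count of 6 became 10 with library size only and 10 with factors from genes above background. The interaction count of 6 became 1 without the T11 libraries, a choice made after the data were seen. Levels depended more on scaling: under other scalings 350 group means moved by at least the SD of the group and 290 did not. With TMM factors over the 48 libraries Tgfb1 was 41.9 CPM in PyMT-N, 27.9 in 2208L and 23.5 in 4T1. In T11 neutrophils it was then 14.5 CPM, against 34.4 without these factors.

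Leaving out 1 library at a time gave counts of 0 to 5 in AT3 against E0771 neutrophils, 1 to 3 in 2208L against T11 macrophages, 0 to 4 between cell types in 2208L tumours and 3 to 6 for the interaction, and counts within 1.5 times elsewhere.

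Scalings moved the median of all genes by over 0.1 (log2) in every comparison except Epi against Mes, most in macrophages against neutrophils of T11 tumours (-0.79 to -2.65). Over the other settings, the DESeq2 test included, 37 values of single genes changed sign. Only genes called in the main fit, the other fit or both were counted. In neutrophils against lines the changed values were Pmepa1 (0.72), Smad3 (0.17), Tgfb2 (0.46), Tgfbr1 (0.65) and Tgfbr2 (0.17) with DESeq2 factors, and 0.73, 0.17, 0.46, 0.65 and 0.17 in the DESeq2 test. With upper-quartile factors Pmepa1 was 0.93, Smad3 0.39, Tgfb2 0.67, Tgfb3 0.035, Tgfbr1 0.87 and Tgfbr2 0.39. With library size only the same genes were 1.32, 0.76, 1.05, 0.41, 1.24 and 0.76, and with factors from genes above background 1.42, 0.87, 1.15, 0.51, 1.34 and 0.87. The last setting also turned Tgfb3 between cell types in AT3 tumours (-0.94), Skil in T11 tumours (-0.44), Skil (-0.41) and Smad7 (-0.90) on the mean of tumours, Smad3 in macrophages against lines (0.10) and Smad3 in 2208L against T11 neutrophils (-0.62). Library size only turned Skil on the mean of tumours (-0.10) and Smad3 in macrophages against lines (0.024), and upper-quartile factors turned Smad3 there (0.010).

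Of the correlations of same-numbered deviations, 1 of 12 passed 0.1 among lines and 2 of 12 between cell types. Among macrophages 0 of 6 passed, and among neutrophils 0 of 6. With so few libraries per group, these correlations cannot show that libraries are unpaired. Macrophage and neutrophil libraries with the same replicate number within a tumour also share a number in their column names. The labels do not say whether they come from the same animal. The main fit did not pair libraries by replicate number. With the number as a replicate block, counts were 10, 9, 8, 10, 6 and 9 in the lines (any, 4 pairs, Epi against Mes), 6, 6 and 1 in neutrophils, 6, 3 and 5 in macrophages, 7 for the mean between cell types, 7, 4, 6 and 2 in T11, 2208L, AT3 and E0771 tumours, 4 for the interaction, and 10 and 6 against lines. Paired by number within each tumour, counts between cell types were 7 for the mean, 7, 3, 7 and 2 by tumour and 5 for the interaction. The cause of these changes was not tested.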
